A study of Canis lupus familiaris with 33 samples.

Results

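The methylated regions of lung were compared with those of 10 other tissues of the dog over autosomes 1 to 38. All peaks of the 11 deposited lists, 1 per tissue, were merged into 450785 union regions wherever they overlapped or touched, and lung had a peak in 238500 of them (52.9%). The regions of lung were then sorted by the peak lists themselves into 3 sets. The first held 1702 regions with a peak only in lung. The second held 4367 regions with a peak in each of the 10 other tissues and none in lung. The third held 121527 regions with a peak in all 11 tissues, 51.0% of the regions of lung.

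The tissues were adult and came from 3 healthy beagles, 1 male and 2 females per the labels, which give no age in years. The series has 33 libraries, 22 of captured DNA (MBD) and 11 of input. The lung list belongs to 2 MBD libraries, 1 from a female and 1 titled jj8 and labelled male, and the lung input library was titled jj8 but labelled female. The other tissues (cerebellum, cerebrum, colon, kidney, liver, mammary gland, ovary, pancreas, spleen and stomach) each had 2 MBD libraries and 1 input as well. The female of the lung list gave 1 MBD library to every tissue. The second came from the animal titled jj8 in most tissues, was titled jj82 in colon and stomach, and came from another female in mammary gland and ovary. Lists thus share animals, the tests over tissues treat them as exchangeable, and in mammary gland and ovary tissue and animal cannot be told apart. The input came from jj8 in 7 tissues, lung included, and from the shared female in the other 4, and the labels name no treatment besides the agents used for euthanasia (alfaxalone and KCl). Both MBD libraries of a tissue share a single list, so no spread between animals can be computed, and the read depth behind the lists is unknown. No annotation of the genome build CanFam3.1 was used here. Genes and sequences at the regions were therefore not analysed here, nor was the labelled tissue checked against lung marker genes.

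In vertebrate DNA, methyl groups sit mostly on cytosines followed by guanine (CpG). The methyl-CpG-binding domain used for the capture binds DNA with many methylated CpGs, so a peak marks a stretch that is both rich in CpG and methylated. The authors sequenced what came off the beads at 600 and 800 mM salt, and higher salt releases more densely methylated fragments. A stretch without a peak can be unmethylated, poor in CpG or too weakly enriched to be called. Lung is a mixture of alveolar and airway epithelium, endothelium, connective tissue and blood-derived cells. In bulk DNA, methylation in fewer cells and fewer methylated CpGs per cell cannot be told apart.

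The lung list held 259739 autosomal peaks, the fourth lowest number among the 11 lists, where the others ran from 251352 (colon) to 353642 (ovary). Its peaks had a median width of 357 bases, against 297 (pancreas) to 359 (cerebrum) elsewhere. The fold of a peak is the enrichment value deposited for it, read by its place in the format, and the control it refers to is not given in the sources used here. Its median over autosomes was 6.19 in lung, the lowest of the 11 lists, and 6.27 (cerebrum) to 8.80 (stomach) in the others. The shortest lung peak had 210 bases, which places lung with cerebrum, kidney, mammary gland and ovary among the 5 lists whose shortest peak exceeds 200 bases. Because lists differ in their folds, each fold was divided by the median fold of its list before tissues were compared. A value of 1 on this scale is the middle peak of a list.

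Regions with a peak only in lung were short and weakly enriched. The 1702 regions made up 0.378% of all union regions (95% Wilson interval 0.360% to 0.396%, which covers counting error only) and 0.714% of the regions of lung. The same count ran from 418 in pancreas to 35014 in cerebellum, and 6 tissues had more than lung (exact permutation test over tissues, one-sided toward larger counts, p = 0.636, adjusted over 4 such tests p = 0.848). One tissue against 10 cannot give a p below 0.0909 in this test. The position of lung depended on list length: with lists cut to equal size lung had 4745 private regions and ranked 3 among 11. Lung-only regions had a median width of 240 bases and a median fold of 3.86 (quartiles 3.45 and 4.32), or 0.625 of the list median. The corresponding value was 0.520 (stomach) to 0.670 (ovary) in the other tissues. Of the 1702 regions, 1442 (84.7%) had a fold below the first quartile of the lung list, and 1692 (99.4%) one below its median. The highest fold among them, 8.09, was lower than that of the strongest private region of any other tissue (8.82 in cerebrum to 21.0 in mammary gland).

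**Figure D1:**
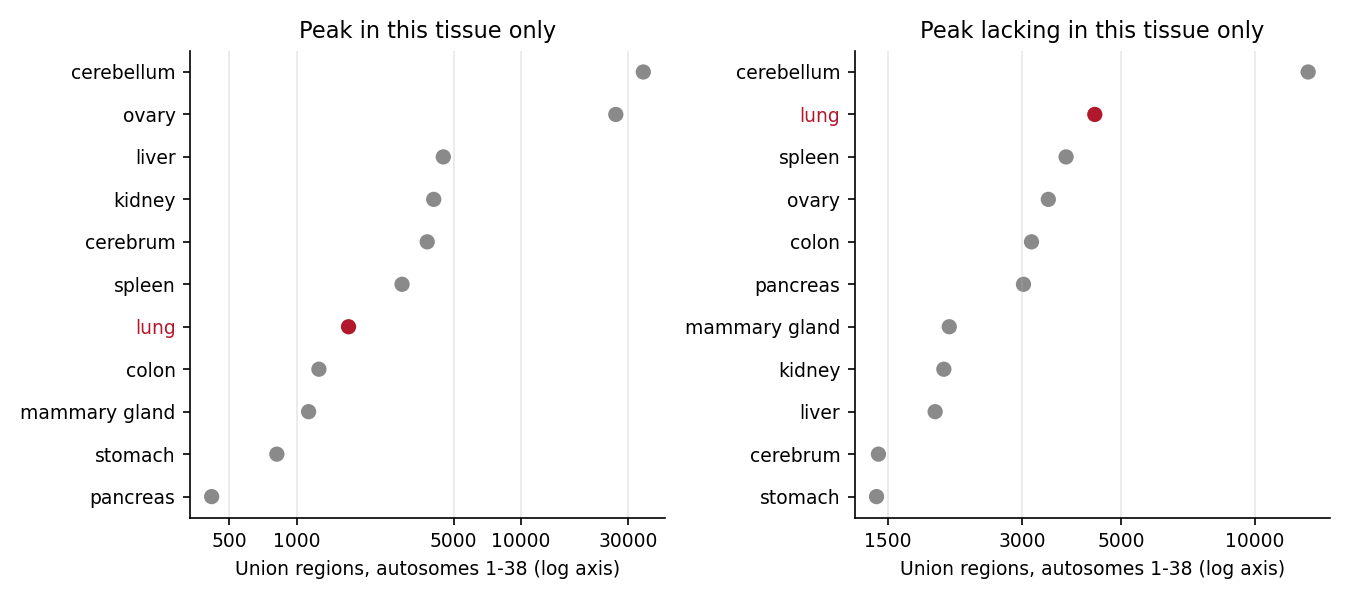
Number of autosomal union regions with a peak in a single tissue (left) and of regions that lack a peak in that tissue alone (right), on log axes, 1 point per tissue and lung in red. Lung ranks 7 among 11 on the left with 1702 regions and 2 on the right with 4367.

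The strongest lung-only region lay on chromosome 20 at 55418207 to 55418538. It had a fold of 8.09, or 1.31 list medians, a −log10 p-value of 27.8 as deposited, and lay 202 bases from the nearest region of other tissues. The next were on chromosome 27 at 25914600 to 25914901 (fold 7.80), on chromosome 15 at 49664620 to 49664923 (fold 7.61) and on chromosome 9 at 44164489 to 44164767 (fold 6.97). These 3 regions were 2018 to 5094 bases from any other region. The other 6 of the 10 strongest, on chromosomes 4, 17, 18, 19, 26 and 27, had folds of 6.28 to 6.57. All 10 were 255 to 341 bases wide, close to the sheared fragment size of about 300 bases, and all exceeded the list median.

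Lung-only regions sat closer to regions of other tissues than to each other. Their median distance to the nearest region with a peak elsewhere was 689.5 bases, the shortest among the 11 tissues (706.5 in liver to 1511.5 in stomach). Another lung-only region lay within 10 kb of 6.35% of them, against 4.55% (pancreas) to 41.5% (cerebellum) for the private regions of other tissues. The largest sets, of cerebellum and ovary, had the highest shares (41.5% and 30.5%). Neither the distance nor the share was compared with randomly placed regions. Chained at that distance, they formed 53 groups, of which 2 held 3 members. The denser of the pair lay on chromosome 2 at 69604693 to 69608550, where 3 of 5 union regions were private to lung with folds of 2.87 to 4.98. The other covered chromosome 33 at 25950107 to 25963998, with folds of 3.70 to 4.38. It also held 2 regions of all tissues, whose median log2 ratio of lung to the other tissues was 1.06. The group on chromosome 2 held 1 such region, with a log2 ratio of 0.05. The third group by this order had 2 members within 639 bases of chromosome 7, from 38472826 to 38473464. Around lung-only regions in general, the 1971 shared regions within 5 kb had a median log2 ratio of 0.25, above the 0.12 of all shared regions. A like rise around private regions was seen elsewhere, for example from −0.03 to 0.11 in cerebellum, from −0.06 to 0.06 in liver and from 0.06 to 0.17 in mammary gland.

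When a lung peak was shared with a single other tissue, that tissue was most often ovary or liver. Such regions numbered 3722, of which ovary accounted for 1058 (28.4%) and liver for 906 (24.3%). Ovary has the longest list, and its 1058 regions were 3.92% of all regions that ovary shares with a single tissue. The 906 were 14.5% of those of liver, the highest such share among the 10 tissues, whose others lay between 1.80% (cerebellum) and 6.57% (pancreas). Colon, pancreas and mammary gland contributed 64, 72 and 88 regions. Over all union regions, liver also overlapped lung most, with 72.0% of the regions that either tissue had, and cerebellum least, with 51.2%.

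**Figure D2:**
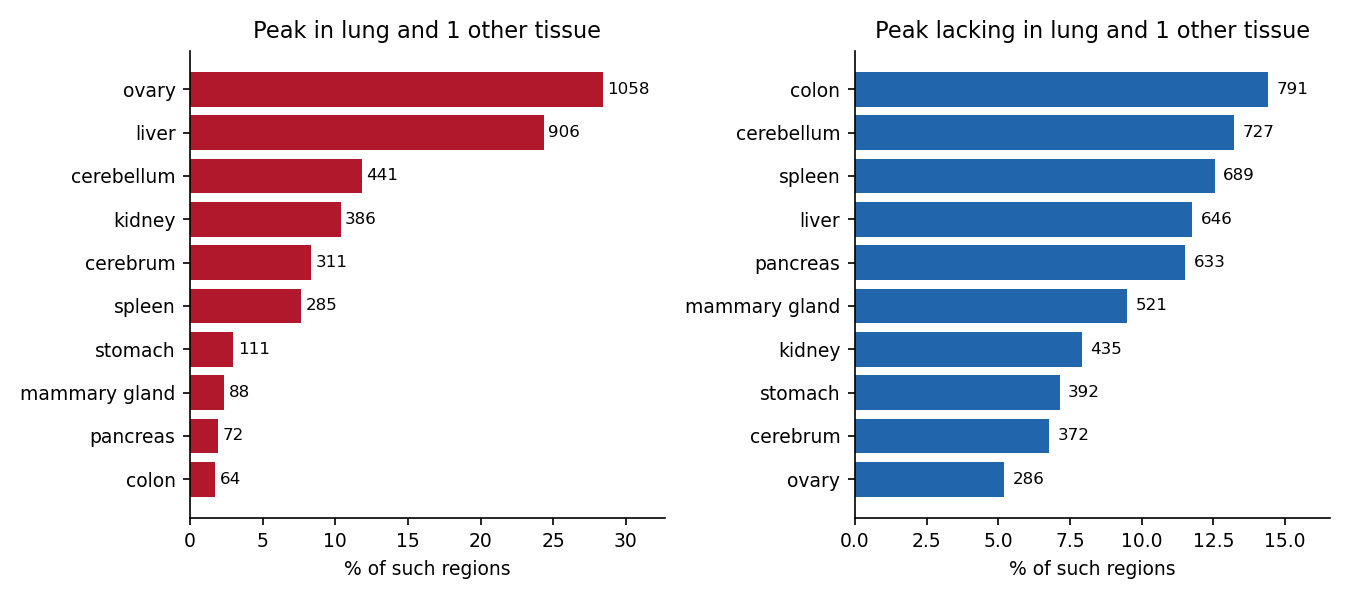
Regions with a peak in lung and exactly 1 other tissue (left, 3722 regions) and regions lacking a peak in lung and exactly 1 other tissue (right, 5492 regions), as the percent contributed by each other tissue, with the number of regions beside each bar. Ovary and liver lead on the left with 1058 and 906 regions, while the right side is more even, from 286 (ovary) to 791 (colon).

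Regions that lacked a peak only in lung were 2.57 times as many as lung-only regions, but this order turned when the lists were cut. With the strongest 50% of each list by fold there were 1929 lung-only and 1016 lung-lacking regions (0.527 times as many), and with lists cut to equal size 4745 and 2771 (0.584 times). The 4367 regions were 0.969% of all union regions (95% Wilson interval 0.941% to 0.998%) and 11.0% of the 39706 regions with a peak in exactly 10 tissues. Cerebellum, with 13152, was the only tissue with more, and the lowest count was 1414 in stomach (exact permutation test over tissues, one-sided toward larger counts, p = 0.182, adjusted p = 0.364). This position depended on the lists and on the rule for presence. Lung ranked 8 among 11 with the strongest 50%, 5 with equal list sizes, and 4 (3801 regions) when a tissue had to cover at least 50% of a region. Without cerebellum lung ranked first among 10 with 5105.

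In the other tissues, the lung-lacking regions lay slightly below the middle of the lists. The median of the other 10 tissues in such a region was 0.93 list medians (quartiles 0.84 and 1.04), where it was 1.46 in regions of all 11 tissues. It exceeded 1 in 1468 of the 4367 regions (33.6%), and in 26 regions all 10 tissues exceeded 1. The regions had a median width of 361 bases, against 798 bases for regions of all 11 tissues. Regions lacking only another tissue were alike, with median levels of 0.82 (stomach) to 1.09 (cerebellum) list medians. Their median widths ran from 352 (liver) to 554 bases (cerebellum). A lung peak was often near a lung-lacking region, at a median distance of 3035 bases, and 62.7% of these regions had one within 5 kb. In the other tissues this share ran from 59.4% (colon) to 82.4% (ovary).

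The lung-lacking region with the highest level elsewhere was on chromosome 6 at 48243297 to 48243676. The other 10 tissues ranged there from 1.02 list medians in liver to 2.14 in kidney, with a median of 1.67. On chromosome 9 at 38354650 to 38355077 they ranged from 0.97 in colon to 2.10 in spleen, with a median of 1.60, and the nearest lung peak was 1278 bases away. The evenest of the strong ones lay on chromosome 29 at 35549251 to 35550470, a wide region of 1220 bases. Its lowest value was 1.36 in pancreas, its median 1.56 and its highest 1.88 in ovary, so that every tissue but lung had a peak stronger than the middle of its list. On chromosome 22 at 8060916 to 8061323 the tissues lay between 1.11 in colon and 1.69 in cerebellum. The other 6 of the 10 had medians of 1.49 to 1.58 and lay on chromosomes 13, 17, 33, 34, 36 and 38.

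Within 10 kb, 7.21% of these gaps had another lung-lacking region. The share was higher in ovary (12.4%) and cerebellum (45.8%) and ran from 2.83% (stomach) to 6.51% (spleen) in the other 8 tissues. There were 155 groups, of which 5 had 3 members. The densest group covered 5866 bases of chromosome 15 from 63840467 to 63846332, where 3 of 4 union regions lacked only lung. The next lay on chromosome 36 at 29469219 to 29477066 and held 2 shared regions with a median log2 ratio of −0.23 in lung, and the third on chromosome 23 at 47396169 to 47408881. The 3529 shared regions within 5 kb of such gaps had a median log2 ratio of 0.06, below the 0.12 of all shared regions. In cerebellum the same pair of values was −0.41 and −0.03, and in mammary gland −0.02 and 0.06. Of these 3529, 9.72% were lower in lung by the threshold of 1.5 described next, against 7.36% of all shared regions. In the other tissues this share near their own gaps ran from 11.2% (colon) to 40.1% (cerebellum).

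In 5492 regions a peak was lacking in lung and exactly 1 other tissue, and no tissue dominated. Colon accounted for 791 of them (14.4%), cerebellum for 727, spleen for 689 and liver for 646. As a share of all regions that a tissue lacked together with a single other tissue, liver was again highest at 21.3%, and the others lay between 7.24% (ovary) and 14.3% (kidney).

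In regions of all 11 tissues, lung was compared by the log2 ratio of its fold, in list medians, to the median of the other 10 tissues. The median of this ratio was 0.12 and 90% of regions lay between −0.68 and 0.79. Regions at least 1.5 times above the other tissues numbered 17495 (14.4%; 95% Wilson interval 14.2% to 14.6%) and regions at least 1.5 times below numbered 8941 (7.36%; 7.21% to 7.51%). Mammary gland had more of the former (19054) and only kidney fewer of the latter (8143). The exact permutation tests over tissues, one-sided toward larger counts, gave p = 0.182 for the higher regions (adjusted p = 0.364) and p = 0.909 for the lower ones (adjusted p = 0.909). Within 0.05 (log2) of the threshold, 3371 higher regions lay just inside and 3748 just outside, and for the lower ones 1630 and 1837.

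Higher regions were 66.2% of those past the threshold, the largest share among the 11 tissues (17.6% in pancreas to 63.7% in mammary gland). The balance depended on the scale. When the folds of each list were replaced by ranks and mapped to a common distribution, 3696 regions were higher and 9271 lower, which makes 28.5% higher. After subtraction of the median ratio at each level of the other tissues, 6627 were higher and 10510 lower (38.7% higher). With the strongest 50% of each list by fold the share was 87.3%, with equal list sizes 80.8%, and with a ratio of 2 in place of 1.5 it was 48.1%, from 1231 higher and 1327 lower regions. Mapping to ranks and the adjustment for level both centre the ratio near 0 by construction, so the balance under them is partly set by that centring.

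The ratio rose with the width of the region. It had a median of −0.08 in the 34504 shared regions under 500 bases, 0.09 between 500 and 1000 bases, 0.23 between 1000 and 2000, 0.40 between 2000 and 4000, and 0.54 in the 5075 regions of at least 4000 bases. In the widest class 2207 regions (43.5%) were higher in lung and 23 (0.453%) lower, whereas under 500 bases 3.64% were higher and 11.7% lower. Mammary gland had a steeper rise, from −0.04 to 0.67, and ovary fell from 0.03 to −0.63, with liver going from −0.03 to −0.26. On ranks the median in lung was −0.07 in the narrowest and 0.06 in the widest class, and after the adjustment for level it was −0.06 and 0.05. By level the ratio was not monotone. It was 0.23 in the 2256 regions where the other tissues had a median under 0.75 list medians (19.2% higher, 2.35% lower), 0.02 between 0.75 and 1, −0.08 between 1 and 1.5, 0.08 between 1.5 and 2 and 0.37 between 2 and 3. Where the other tissues had a median of at least 3 list medians, the ratio was 0.52 in lung, 0.67 in mammary gland, −0.35 in liver and −0.70 in ovary. In the regions under 0.75, ovary had 0.53, liver 0.04 and mammary gland −0.12. The classes were set by the denominator of the lung ratio. That choice by itself favours high ratios in the lowest class and low ones in the highest.

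**Figure D3:**
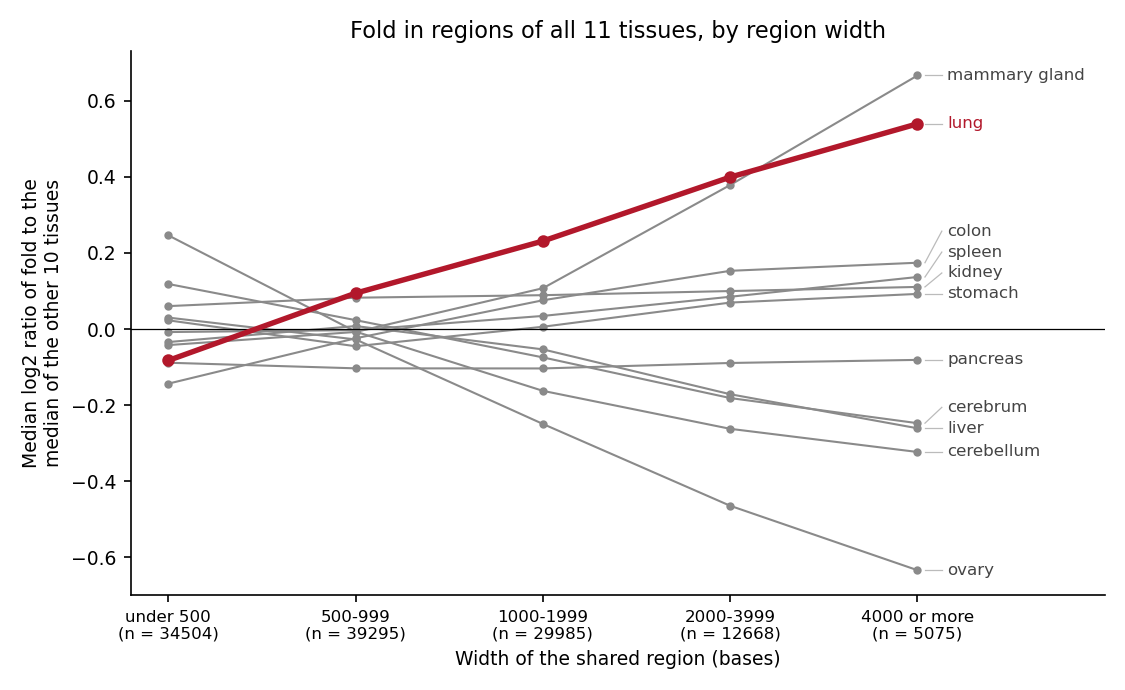
Median log2 ratio of the fold of each tissue (in list medians) to the median of the other 10, by region width, for the regions found in all 11 lists. Lung (red) rises from −0.08 to 0.54, next to mammary gland at 0.67, and ovary falls to −0.63 in the widest class.

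Lung was the highest of the 11 tissues in 16062 shared regions and the lowest in 7733. Where it was highest, mammary gland came next in 4959 regions (30.9%), followed by spleen with 2025 (12.6%) and kidney with 1958 (12.2%). Ovary was next in 391 (2.43%). Where lung was lowest, no tissue stood out as the next lowest, with colon in 1017 (13.2%), liver in 990 (12.8%) and mammary gland in 907 (11.7%). Of the regions higher in lung, 7827 were also higher in mammary gland, which is 44.7% of those of lung and 41.1% of those of mammary gland. Over all shared regions, 14.4% were higher in lung and 15.7% in mammary gland. Higher regions had a median width of 1425 bases and lower regions one of 544 bases. Lung peaks covered a median of 92.8% of the width of higher regions, where the median of the other tissues covered 85.4%. In lower regions they covered 69.4%, against 77.9%.

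Among the regions in which lung was highest, the largest ratio was found on chromosome 4 at 10462881 to 10463900. Lung had a fold of 65.6, or 10.6 list medians, and the others ranged from 1.56 in cerebrum to 8.15 in stomach around a median of 3.15, so lung was 3.37 times the median. Stomach had the larger fold before scaling, 71.7, so lung was highest there only in list medians. Of the 10 regions, the widest gap to the next tissue was on chromosome 16 at 123167 to 125549, near the start of that chromosome's coordinates. Lung had a fold of 70.8, or 11.4 list medians, while no other tissue exceeded 5.06 (mammary gland), their median was 3.68 and their lowest value 2.61 in cerebellum. On chromosome 2 at 30236913 to 30237465 lung had 2.62 list medians and the others 0.44 in pancreas to 1.76 in mammary gland, with a median of 0.81. In that region lung was 3.24 times the median of the other tissues. Its log2 ratio of 1.70 was 1.53 on ranks and 1.60 after the adjustment for level. That of the chromosome 4 region fell from 1.75 to 1.06 and 1.22, so its place as the largest depended on the scale. On chromosome 10 at 27474252 to 27475246 and chromosome 12 at 6761174 to 6761716, mammary gland was almost as high as lung, with 3.70 against 3.82 and 3.02 against 3.09 list medians. On chromosome 22 at 57035991 to 57037468 liver came close, with 2.72 against 2.83. In these 3 regions too the other tissue had the larger fold before scaling, 25.5, 20.9 and 19.5 against 23.6, 19.1 and 17.5 in lung. The remaining 4 of the 10 lay on chromosomes 6, 10, 19 and 35 and had ratios of 2.89 to 2.98.

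Where lung was lowest, the largest difference was on chromosome 15 at 20898634 to 20900006. Lung had a fold of 2.63, or 0.43 list medians, and the others ranged from 0.60 in mammary gland to 2.50 in liver, with a median of 1.70, so that lung was 0.250 of the median. On chromosome 19 at 12012249 to 12012860 lung had 0.30 list medians and the others 0.70 in cerebellum to 1.75 in kidney. Of these 10, the widest separation from the next tissue was on chromosome 5 at 39133550 to 39133958. Lung had 0.38 list medians there, and the others formed a narrow range from 1.03 in colon to 1.57 in ovary. Chromosome 8 had 2 of the 10 regions, at 50698226 to 50698807 and at 64874220 to 64875539, with log2 ratios of −1.93 and −1.90. The others were on chromosomes 7, 26, 29, 30 and 36 with ratios of −1.85 to −1.69. In all 10, the lung peak was itself weak, with folds of 1.87 to 2.83 and −log10 p-values of 3.70 to 7.86 as deposited. All 20 named shared regions stayed past 1.5 times under the 4 other scalings of the fold. They were picked as extremes of the same folds, far past this threshold, so this is no independent support. Some shrank: on ranks the log2 ratio of the chromosome 16 region fell from 1.63 to 0.98. That of the chromosome 6 region fell from 1.56 to 0.98.

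**Figure D4:**
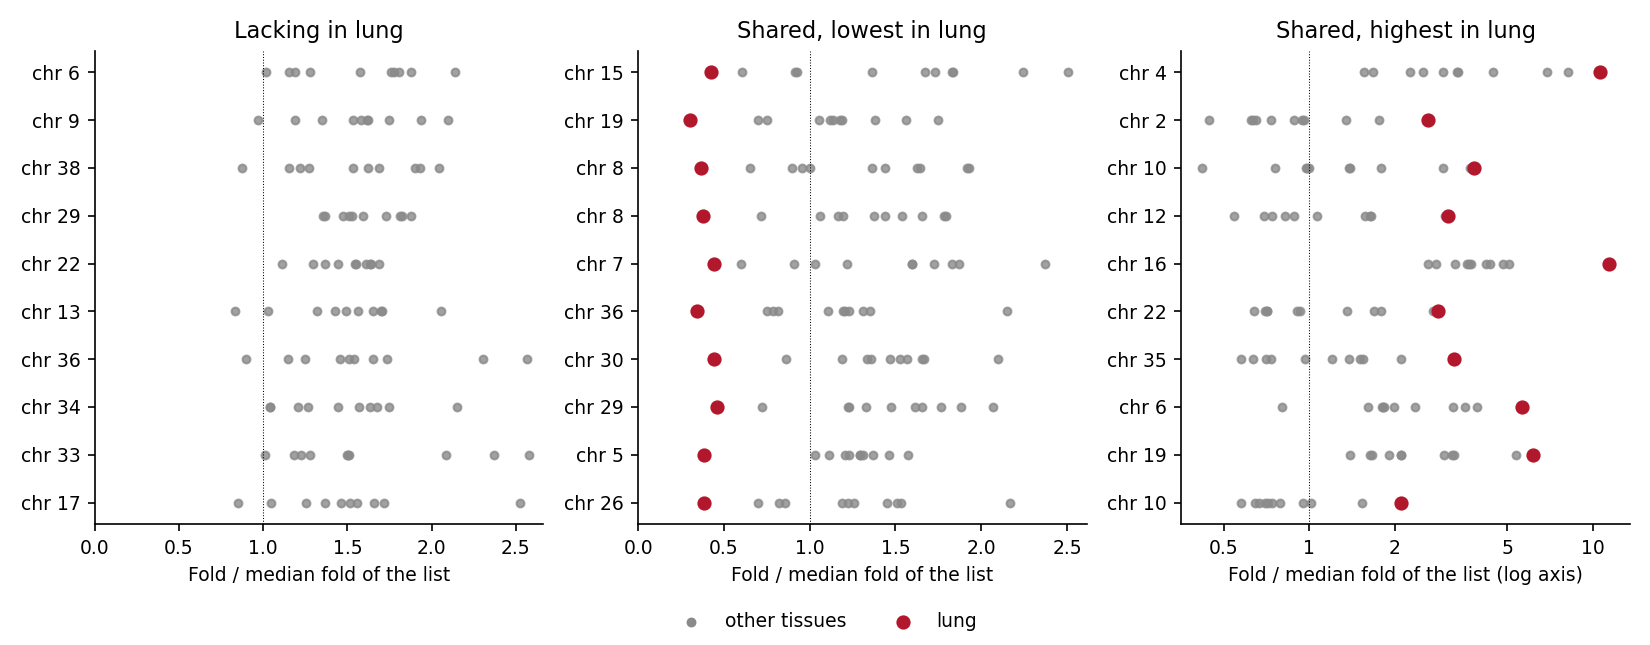
Fold in list medians of lung (red) and of the other 10 tissues (grey) in the 10 regions with the highest level among those lacking a peak only in lung (left; lung has no point) and in the shared regions with the most negative (middle) and most positive (right, log axis) log2 ratio among those where lung was the lowest or the highest tissue. Rows are regions labelled by chromosome, and the dotted line marks the middle peak of a list.

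Chromosomes with a high share of lung-only regions tended to have a low share of lung-lacking ones (Spearman's rho −0.69 over 38 autosomes). Between the corresponding shares of cerebellum rho was −0.80, and of ovary −0.79. The trend had exceptions: chromosome 3 was above the share of all autosomes in both lung sets (1.18 and 1.13 times). Chromosome 9 had the highest share of lung-only regions, 133 regions or 0.762% of its union regions (95% Wilson interval 0.643% to 0.902%), and chromosome 20 followed with 88 or 0.654% (0.531% to 0.805%). Relative to all autosomes these shares were 2.02 and 1.73 times as high in lung. Private regions of liver had a like excess on both chromosomes (2.07 and 1.84 times), as did those of colon on chromosome 20 (1.73 times), and spleen had 1.54 times on chromosome 9. Chromosome 36 had the lowest lung-only share, 8 regions or 0.123% (0.0626% to 0.243%). For lung-lacking regions chromosome 9 was lowest, with 104 or 0.596% (0.492% to 0.721%), and chromosome 32 highest, with 72 or 1.53% (1.22% to 1.93%). Chromosome 36 had 87, or 1.34% (1.09% to 1.65%), and there lung accounted for 19.2% of the regions that lacked a single tissue, against 5.62% on chromosome 9. With the strongest 50% of each list, the lung-lacking share was 0.385% on chromosome 32 and 0.405% on chromosome 36. Both were then near the 0.381% over all autosomes, and chromosome 9 had 0.236%. These chromosomes are named because they were the extremes among 38, so their intervals are a description and no test of the difference.

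Both shares followed how densely a chromosome carried union regions. Chromosomes ranged from 121 regions per Mb (chromosome 32) to 303 (chromosome 26), with 286 on chromosome 9. Over the 38 autosomes Spearman's rho with this density was 0.60 for the lung-only share and −0.79 for the lung-lacking share. It was 0.60 and −0.56 in liver, and had the opposite signs in cerebellum (−0.54 and 0.61) and ovary (−0.66 and 0.53). These values describe chromosomes of the same lists, which share libraries and enter the density themselves, and no test was made on them. Differences in base composition between chromosomes were not analysed here. The median width of lung peaks ran from 272 bases on chromosome 32 to 409 on chromosome 18. It did not simply follow density: it was 377 bases on chromosome 26, the densest, and 402 on chromosome 31, which had 152 regions per Mb. Lung-only regions varied little, from a median of 225 bases (chromosome 29) to 254 (chromosome 21), and lung-lacking ones from 337.5 (chromosome 27) to 389 (chromosome 26).

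**Figure D5:**
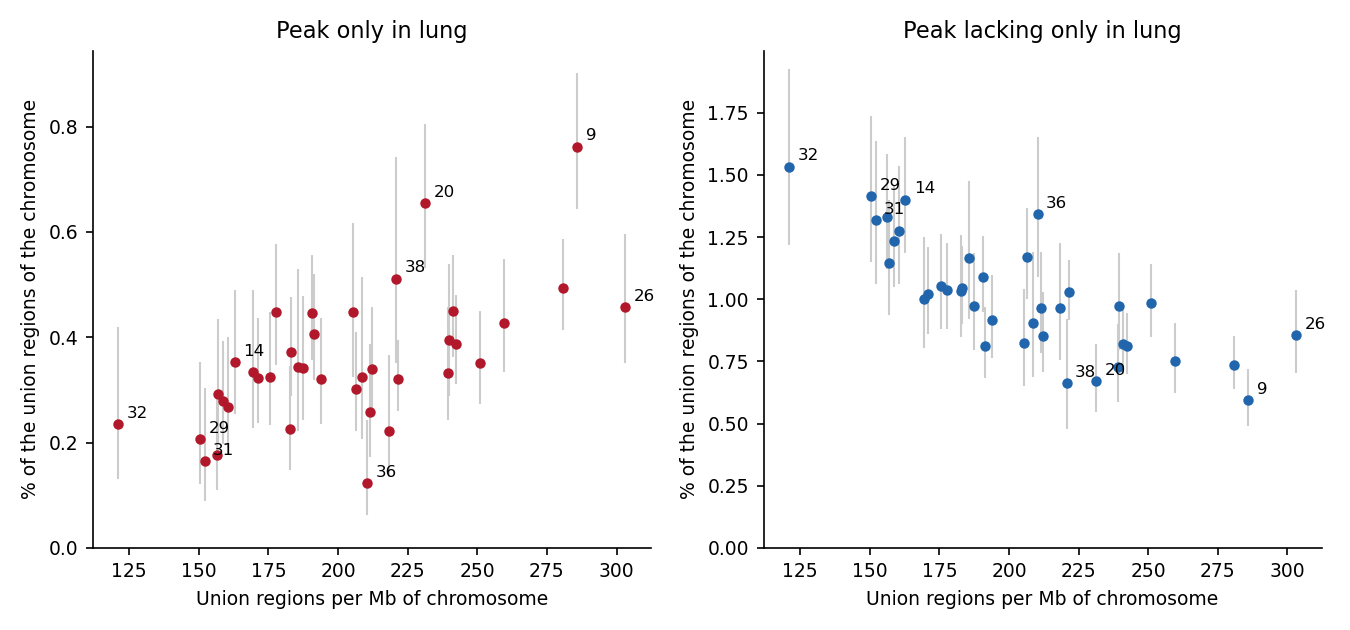
Percent of the union regions of each autosome that had a peak only in lung (left) or lacked one only in lung (right), against the number of union regions per Mb, with 95% Wilson intervals and some chromosomes numbered. Chromosome 9 is highest on the left (0.762%) and lowest on the right (0.596%), and chromosome 36 is lowest on the left (0.123%).

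The median log2 ratio of lung in shared regions was highest on chromosome 9 (0.19) and lowest on chromosome 32 (−0.05), where 6.16% of shared regions were higher and 10.4% lower. It did not go with the other shares on every chromosome: chromosome 31, with 0.165% lung-only and 1.32% lung-lacking regions, had the highest percent of higher shared regions (18.2%) and a median of 0.16. The difference of 0.24 between chromosomes 9 and 32 was 0.13 on ranks and 0.13 after adjustment for the level of the region. With the strongest 50% of each list it was 0.09, and with equal list sizes 0.26. The median on chromosome 32 was positive in both of these settings, 0.17 and 0.02. Shared regions on chromosome 32 were also the narrowest, with a median of 390 bases, against 805.5 for the median chromosome.

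Dog autosomes carry the centromere near one end. Within 1 Mb of the last peak of a chromosome, the 5615 shared regions had a median log2 ratio of 0.27 in lung, and 24.3% of them were higher and 6.55% lower. The ratio was 0.17 between 1 and 5 Mb, 0.11 between 5 and 10 Mb, 0.08 between 10 and 20 Mb, and 0.11 again in the 71882 regions beyond 20 Mb. Over the first 1 Mb of the chromosomes it was 0.22. Mammary gland had 0.27 and ovary −0.40 in the last 1 Mb. Shared regions were wider there, with a median of 1308 bases, and on ranks the difference between the last 1 Mb and the rest fell from 0.15 to 0.02. Lung-only regions were not more frequent there, with 0.250% of union regions in the last 1 Mb against 0.396% beyond 20 Mb, and lung-lacking regions made up 1.00% and 0.977%.

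Of the 17495 regions higher in lung, 52.9% had another such region within 10 kb, and of the 8941 lower regions 17.4% did. Over all 121527 shared regions, 80.5% had another shared region within 10 kb. Next to a higher region, 22.9% of the adjacent shared regions within 10 kb were also higher in lung, against 14.4% of all shared regions. Next to a lower region, 8.90% were also lower, against 7.36%. Adjacent regions are not independent of each other, and no test was made of these shares.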

How the data were processed

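The deposited data were 11 narrow-peak lists, 1 per tissue, made by the authors from MBD and input libraries. The build is CanFam3.1 per the submitters' processing notes. The aligner, the caller, the filters and how libraries were combined are not given in the sources used here. The fold, a ratio deposited per peak, and the −log10 p-value deposited by the authors were read by their place in the format, and used as deposited. Both are the authors' values for single peaks.

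Autosomal peaks of all lists were merged where they overlapped or touched. A tissue was present in a region with 1 overlapping base. Its level was its highest fold there divided by the median autosomal fold of its list. Ratios of lung to the median of the other 10 tissues were called at 1.5 times. Named regions are the 10 strongest lung-only regions by fold, the 10 lung-lacking regions with the highest median elsewhere, the 10 highest and 10 lowest ratios where lung was highest or lowest of 11, and the 3 densest groups (chains at 10 kb) of each kind. The planned naming of genes and gene lists was not done, since the gene table at hand is of another build. Tissues were the units of the exact permutation tests, Benjamini-Hochberg adjusted over 4. The members and settings were chosen with earlier results of these data known. Alternatives were stricter, equal or fewer lists, other merging, presence and scaling rules. Computations were tested on simulated data. Python 3.11.15, numpy 2.4.6, pandas 2.3.3, scipy 1.17.1 and matplotlib 3.10.9 were used.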

Additional observations from a re-analysis of the deposited data

Results flagged for a closer look

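Chromosome X was not part of the comparison. It held 74 regions with a peak only in lung (0.346% of its 21367 union regions) and 116 that lacked a peak only in lung (0.543%). The autosomal shares were 0.378% and 0.969%. The lung list has 1 library labelled male, while mammary gland and ovary have females only. Between these lists, tissue and sex cannot be told apart on X. In the other tissues these shares of X ran from 0.0983% (pancreas) to 8.47% (cerebellum) and from 0.168% (mammary gland) to 1.44% (kidney).

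Each of the 4 classes of lists by input animal or by shortest peak was searched for a tissue far from the rest. The search covered 5 counts or ratios, 20 searches in all. How many far values chance would give was not computed. The searches are not independent, since the same lists were split both by input animal and by shortest peak. The far values are therefore a description and no test. Lung was never the far value. Cerebellum stood apart with 35014 private regions, among the 7 lists with input jj8 and among the 6 with a shortest peak under 200 bases, and with 13152 regions lacking only there, in both classes. Among the lists with input jj8, lung with 4367 was the next highest. Ovary stood apart with 26411 private regions among the 4 lists with an input of the other animal and among the 5 with a shortest peak over 200 bases, where lung had 1702.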

How the results depend on the processing

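The count of lung-only regions, 1702, became 4745 with equal list sizes, 3883 without cerebellum and ovary, and 5801 among the 5 lists with a shortest peak over 200 bases. Leaving out each tissue in turn gave 1769 to 2835, and the count passed 1.5 times its value without liver (2630) and without ovary (2835). The count of lung-lacking regions, 4367, became 1016 with the strongest 50% of each list by fold, 2771 with equal list sizes and 16473 among the 5 lists. With fewer lists to compare, both counts rise by construction. The count of higher shared regions, 17495, became 8894 with the strongest 50%, 3696 on ranks, 1231 with a ratio of 2 and 6627 with the adjustment for level, which was chosen after seeing the data. The count of lower regions, 8941, became 1289 with the strongest 50%, 4725 with equal list sizes, 1327 with a ratio of 2 and 16251 among the 5 lists, where more regions are shared. The higher and lower counts among the 5 lists, with 50% of a region covered and without cerebellum and ovary were added after seeing the data. Regions of at least 4000 bases kept a positive median ratio, from 0.05 with the adjustment for level to 0.61 with equal list sizes. The causes were not tested. Where another alternative was run for one of these 4 counts, it stayed within 1.5 times. Relations between the counts did turn: lung-lacking regions were 0.527 times the lung-only ones with the strongest 50% and 0.584 times with equal list sizes, against 2.57, and higher regions were fewer than lower ones on ranks and with the adjustment for level, which both centre the ratio near 0, and at a ratio of 2. No paired analysis was possible because each tissue has a single list for both animals. Without read counts, weak enrichment and absence of a peak cannot be told apart.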
